A study of Homo sapiens with 40 samples.

Results

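Steroid hormone receptors are transcription factors that bind DNA once a hormone fits their ligand pocket. The androgen receptor and the glucocorticoid receptor are close relatives with similar DNA-binding domains, and a number of genes can be induced through either one. The genes described here are 10 such shared targets and partners: the glucocorticoid receptor gene itself, NR3C1, and FKBP5, SGK1, TSC22D3, PER1, KLF9, ZBTB16, ERRFI1, CEBPD and DUSP1. In prostate cancer cells they are of interest because a glucocorticoid receptor that takes over targets of a blocked androgen receptor is a known route to antiandrogen resistance. The members were picked by gene name, with earlier results of these arrays known. Each was read from the probe sets that the platform annotation pairs with that gene alone, with the brightest probe set standing for the gene. Of the 10 members, 9 had such a probe set and 8 were bright enough to be tested, out of 19775 named genes and 11853 tested genes in the series.

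The data are 40 Affymetrix arrays of LNCaP cells, an established androgen-responsive line from a human prostate cancer metastasis. The series holds 3 control lines labelled sensitive to MDV3100 and 7 resistant clones labelled insensitive, numbered 1, 9, 10, 14, 15, 19 and 24. MDV3100, also called enzalutamide, is an antiandrogen that competes for the ligand pocket of the androgen receptor. Every line grew in RPMI-1640 medium with 10% FCS for 3 days before 24 h in 10 µM MDV3100 or in its solvent, 0.1% DMSO. Control 1 is titled D+E-, control 2 is titled D+R- and control 3 is titled M+R-, letters whose meaning the labels do not state. Each resistant line is 1 clone, so its particular traits cannot be told apart from resistance. With 2 arrays for each line and treatment, numbered replicate 1 and replicate 2, the control lines gave 6 arrays in DMSO and 6 in MDV3100, and the clones 14 in each. Nothing in the labels says that replicates came from separate cultures, so the scatter between the 2 replicates of a line may be technical. A p-value of the main tests measures the spread between these particular 3 control lines and 7 clones, each averaged over its replicates. The word culture stands below for 1 line in 1 replicate, with its DMSO and MDV3100 arrays.

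Values are MAS5 signal intensities, scaled to a trimmed mean of 150 in every array. A response is the difference in log2(signal + 16) between the MDV3100 and the DMSO array of a culture, which understates the change of dim genes. Tests took the line as the unit, from the mean of its 2 replicates, in limma, with Benjamini-Hochberg adjustment over all 11853 genes. An adjusted p under 0.05 is a call, and the words rose, fell, higher and lower in a test refer to calls.

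The 2 replicates of a line did not resemble each other in expression profile. After the profiles were centred within each replicate, 0 of 10 lines had their best match in replicate 1 under their own label. The correlation with the own label lay between -0.43 and 0.018. The replicate 2 profile of control 2 was most like clone 1 of replicate 1 (r = 0.56), and that of control 3 was most like clone 14 (r = 0.43). The replicate 2 profiles of clones 14, 15, 19 and 24 were each most like control 1 of replicate 1 (r = 0.50, 0.54, 0.59 and 0.51). Thus 6 cultures of replicate 2 were most like a line of the other class. Clone 1 was most like clone 19 (r = 0.59), clones 9 and 10 were most like clone 15 (r = 0.31 and 0.20), and control 1 was most like control 3 (r = 0.33). DMSO and MDV3100 arrays of the same line and replicate deviated together, with r between 0.48 and 0.87 over 20 pairs. Every line mean and every difference between clones and control lines below takes the labels of both replicates as given, and whether labels were exchanged in either replicate was not tested. Line names below mean the arrays labelled so, and responses are given per culture, with calls that change when the replicates are read apart.

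All 9 measured luminal prostate markers were above the brightness filter, while 0 of 3 basal and 0 of 4 leukocyte markers were. Of 6 fibroblast markers 3 passed, with summed signals of the list from 138.6 to 224.3 in control DMSO, 147.9 to 367.6 in control MDV3100, 100.1 to 212.8 in clone DMSO and 92.1 to 205.6 in clone MDV3100 arrays. The stromal collagen gene COL1A1 was lower in clones than in control lines in MDV3100 by a log2 difference of -0.61 (adjusted p = 0.039). Of 3 endothelial markers only VWF passed. It fell by 0.43 on the log2 scale in the control lines (adjusted p = 0.031), and the summed list ran from 16.3 to 133.2 in control DMSO, 14.3 to 88.9 in control MDV3100 and 15.5 to 46.2 over all clone arrays. The part of these markers in the results was not tested. The 3' to 5' ratio of the actin control probe sets, a measure of RNA integrity and amplification, averaged 3.79 ± 0.53 in control DMSO and 5.11 ± 1.28 in control MDV3100 arrays of replicate 1 (SD, n = 3). In replicate 2 it was 3.46 ± 0.22 and 3.57 ± 0.33. In the clones it averaged 4.06 ± 0.46 in DMSO and 4.37 ± 0.53 in MDV3100 arrays of replicate 1 (SD, n = 7), and 3.14 ± 0.27 and 3.02 ± 0.35 in those of replicate 2. Its part in the responses and in the differences between replicates was not tested either.

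Promoter windows from RefSeq (GRCh38.p14), running from 250 bases before to 50 after each annotated start, covered 8 of the 10 members with 20 windows. They were searched on both strands for the hexamer AGAACA, the core that steroid receptor elements are built from. The reverse complement of the hexamer was searched with it, and a full element was taken as the hexamer, any 3 bases and its reverse complement, so that a full element always contains the hexamer. Searches were also made for the cAMP response element, TGACGTCA. The last motif was the E box, CACGTG, which clock proteins can bind. The full element was in 0 of the 20 member windows and in 0.00285% of all 35116 windows. The hexamer on either strand was in 14.8% of all windows and in 1 window each of FKBP5 and SGK1. An absent match says only that these letters are not in these windows. The first pair of sequences below is shown because these are the member windows that hold the hexamer, printed with 12 bases on each side and the hexamer in capitals. Both lie on the minus strand and are written 5′ to 3′, FKBP5 at chr6:35728566-35728595 and SGK1 at chr6:134177839-134177868.
FKBP5 hexamer: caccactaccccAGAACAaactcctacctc
SGK1 hexamer: ggggttcataacAGAACAgggatagccgtc

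The cAMP response element was in 1.85% of all windows, and among the members in DUSP1. The E box was in 7.26%, and among the members in DUSP1, PER1 and a second FKBP5 window. The DUSP1 stretch below (chr5:172771261-172771350, minus strand) is shown because it holds both motifs in capitals, the response element first. The 250 bases before the other FKBP5 start (chr6:35688916-35689165, minus strand) are shown because FKBP5 is the member with the most calls, and its E box is in capitals. These matches are descriptions of sequence only.
DUSP1 upstream: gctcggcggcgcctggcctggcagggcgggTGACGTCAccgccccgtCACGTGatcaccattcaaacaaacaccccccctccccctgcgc
FKBP5 upstream: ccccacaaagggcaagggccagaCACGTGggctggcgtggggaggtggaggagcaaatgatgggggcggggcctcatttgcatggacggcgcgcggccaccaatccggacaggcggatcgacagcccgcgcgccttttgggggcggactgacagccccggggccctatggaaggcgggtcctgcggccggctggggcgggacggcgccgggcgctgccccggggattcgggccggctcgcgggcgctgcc

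The receptor gene NR3C1 was dim. Over all 40 arrays the brightest of its 5 probe sets ran from 0.4 to 25.3 in signal, with a mean of 7.37 against a filter of 12.1, and it was not tested with the other members. Control lines 1, 2 and 3 had replicate 1 signals of 11.2, 14.7 and 25.3 in DMSO and 20.6, 8.9 and 24.5 in MDV3100. Replicate 2 gave 14.6, 0.7 and 2.8 in DMSO and 10.7, 3.2 and 8.5 in MDV3100. The clones had a lowest, median and highest signal of 0.4, 3.45 and 15.7 in DMSO and of 0.7, 4.55 and 16.6 in MDV3100. The groups overlapped, and control lines and clones both reached down to signals near 0. Without the brightness filter no comparison of NR3C1 was called. The log2 difference between clones and control lines was -0.37 in DMSO (adjusted p = 0.20) and -0.37 in MDV3100 (adjusted p = 0.14), and the difference of responses was -0.0078 (adjusted p = 0.99). At these signals a change of NR3C1 was not measurable with confidence in either direction. PER1, a circadian repressor, was not analysed here because its probe sets are shared with another gene in the annotation.

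In the control lines MDV3100 lowered 3 of the 8 tested members, FKBP5, ZBTB16 and CEBPD, and raised none. In this comparison 10.1% of all tested genes were called, and 5.06% of all tested genes were called lower. The median response of the 8 members was -0.19, against 0.0082 for all genes. In the 7 clones 0 of 8 members were called by limma, against 0.801% of all genes. At an unadjusted p under 0.05 the clone response held 4 of the 8, FKBP5, ERRFI1, ZBTB16 and TSC22D3, among 1820 genes in all. The median clone response was 0.031. The difference of responses, clones minus control lines, was called for 1 of 8 members, FKBP5, against 0.717% of all genes, and was above 0 for 7 of 8. When single arrays were fitted with a block for each line, 0 of 8 members and 0% of all genes were called in these 3 comparisons, and the control responses of FKBP5, ZBTB16 and CEBPD had adjusted p of 0.65, 0.49 and 0.90.

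**Figure D1:**
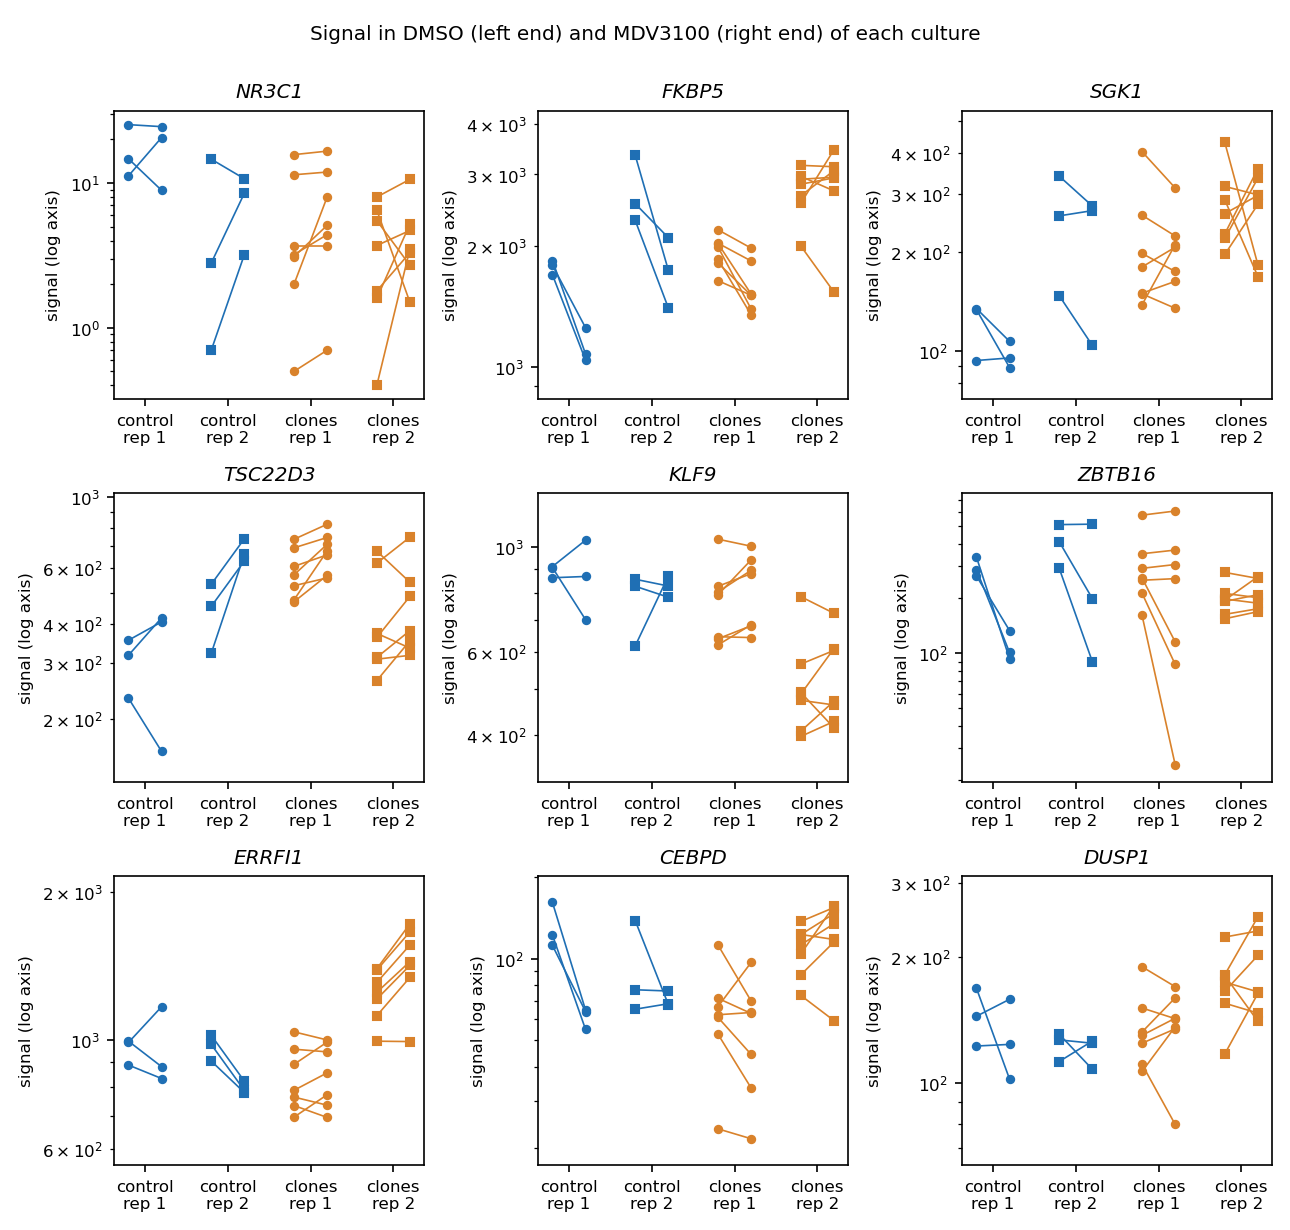
Signal of each member (log axis) in DMSO, at the left end of each line, and in MDV3100, at the right end, for the control lines (blue) and clones (orange) of replicate 1 (circles) and replicate 2 (squares). Each joined pair is 1 culture; FKBP5 is lower in MDV3100 in 6 of 6 control cultures, and NR3C1 lies between 0.4 and 25.3.

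FKBP5 encodes a co-chaperone that sits in steroid receptor complexes and takes part in their feedback control. Control lines 1, 2 and 3 had replicate 1 signals of 1838, 1694 and 1788 in DMSO and 1079, 1042 and 1254 in MDV3100. Replicate 2 gave 2308, 2539 and 3344 in DMSO and 1403, 2093 and 1739 in MDV3100. Every control culture was thus lower in the drug, and control 2 of replicate 2 had the smallest change. The response was -0.65 ± 0.08 (SE) on the log2 scale, or 0.638 of the DMSO value of signal + 16, with an adjusted p of 0.000425. Read apart, replicate 1 gave -0.65 (adjusted p = 0.0046), while replicate 2 gave -0.64 and was not called (adjusted p = 0.097).

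In the clones the FKBP5 signal in DMSO had a lowest, median and highest value of 1639, 1984 and 2189 in replicate 1 and of 1997, 2838 and 3160 in replicate 2. In MDV3100 the values were 1349, 1508 and 1972 in replicate 1 and 1537, 2954 and 3452 in replicate 2. All 7 clone cultures of replicate 1 were lower in the drug, with responses from -0.50 to -0.12. In replicate 2 only 3 of 7 were lower, and the range was -0.37 to 0.44, with clone 9 at the top and clone 1 at the bottom. The mean clone response of -0.13 ± 0.05 was not called (adjusted p = 0.24). The response differed between clones and control lines by 0.52 ± 0.09 (adjusted p = 0.031). In replicate 1 all 7 clone responses lay above all 3 control responses, though by little (-0.503 against -0.507 at the closest). In replicate 2 they overlapped. How many of all genes separate the groups in this way was not counted, here or for the members below. Such separation is therefore a description only.

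In MDV3100 the FKBP5 level was higher in the clones than in the control lines by 0.58 ± 0.10 (adjusted p = 0.014), where 8.96% of all tested genes were called, and 4.7% of all tested genes were called higher. Neither replicate was called alone. In replicate 1 every clone was above every control line, and in replicate 2 clone 1, at 1537, lay among the control lines. In DMSO the difference was 0.06 ± 0.08 (adjusted p = 0.68). With arrays fitted in limma with a block for each line and replicate, the response difference of FKBP5 lost its call (adjusted p = 0.13). That fit took each culture, not each line, as the unit. The call was also lost without control 1 (0.47, adjusted p = 0.22), control 3 (0.48, adjusted p = 0.064) or clone 19 (0.51, adjusted p = 0.067). The MDV3100 level difference lost its call without control 1 (adjusted p = 0.088). The other 2 FKBP5 probe sets followed the brightest, with r of 0.94 and 0.96 over 40 arrays for levels and of 0.90 and 0.92 over 20 cultures for responses. All 3 read the same RNA. The dimmer 2 had control responses of -1.03 and -0.94, both called, but their response differences of 0.88 and 0.71 were not called (adjusted p = 0.071 and 0.090).

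ZBTB16, also called PLZF, encodes a zinc finger repressor that androgens and glucocorticoids are both known to induce. In replicate 1 control lines 1, 2 and 3 went from 288, 338 and 266 in DMSO to 101, 93.2 and 133 in MDV3100. The same lines went in replicate 2 from 293, 509.9 and 410.3 to 89.9, 513 and 199.8. Control 2 of replicate 2 did not move, while the other 5 control cultures had lower signals in the drug. The response of the control lines was -1.08 ± 0.17, or 0.472 of signal + 16, with an adjusted p of 0.0022. Replicate 1 alone gave -1.33 (adjusted p = 0.036), and replicate 2 alone gave -0.84 (adjusted p = 0.11).

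The clones of replicate 1 split. Clone 9 went from 161.7 to 24.4, clone 10 from 213.9 to 86.9 and clone 14 from 259 to 115.6, responses of -2.14, -1.16 and -1.06. Clones 1, 15, 19 and 24 kept between 252 and 606 in both treatments, with responses from 0.03 to 0.07. In replicate 2 all 7 clones stayed between 154.8 and 278 in both treatments, with responses from -0.10 to 0.40. There clones 9, 10 and 14 had responses of 0.40, 0.11 and -0.07. The mean clone response was -0.26 ± 0.11 (adjusted p = 0.29), and the difference from the control lines, 0.82 ± 0.21, was not called (adjusted p = 0.094). ZBTB16 was the member with the widest spread of responses among the clones of replicate 1 (SD 0.88).

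In DMSO the ZBTB16 level differed between clones and control lines by -0.51 ± 0.20 (adjusted p = 0.16), with all clones of replicate 2 below all control lines and overlap in replicate 1. In this comparison 0 of 8 members were called by limma, against 0.118% of all genes, and 5 of 8 had an unadjusted p under 0.05, as had 2880 genes in all. In MDV3100 the difference was 0.31 ± 0.36 (adjusted p = 0.61). The response difference of ZBTB16 was called without clone 9 (0.93, adjusted p = 0.045). The DMSO level difference was called without clone 1 (-0.63, adjusted p = 0.011).

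CEBPD encodes a CCAAT/enhancer-binding transcription factor of the acute phase and differentiation. In replicate 1 the control lines went from 161, 122 and 112 in DMSO to 64.7, 54.9 and 63.9 in MDV3100. In replicate 2 control 1 went from 138 to 67.8, while control 2 went from 76.9 to 76.1 and control 3 from 65.2 to 68.3. The 4 cultures with responses of -0.68 or lower ended near the level at which the other 2 stood in both treatments. The control response was -0.60 ± 0.11 (adjusted p = 0.0056), made of -0.93 (adjusted p = 0.0064) in replicate 1 and -0.28 (adjusted p = 0.54) in replicate 2. Without control 1 it was -0.40 and not called (adjusted p = 0.076).

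The clones had CEBPD signals in DMSO of 23.6, 62.2 and 112 (lowest, median, highest) in replicate 1 and of 73.3, 113 and 137 in replicate 2. In MDV3100 the same values were 21.7, 62.9 and 97.0 in replicate 1 and 59.2, 135 and 157 in replicate 2. In replicate 1 every clone response, from -0.58 to 0.45, lay above every control response, and in replicate 2 they overlapped. The mean clone response was 0.0020 ± 0.07 (adjusted p = 0.99). The difference of responses was 0.61 ± 0.14 and not called (adjusted p = 0.063). It was called without control 3 (0.75, adjusted p = 0.042). The level difference in DMSO was -0.36 (adjusted p = 0.18), at -0.94 in replicate 1 and 0.22 in replicate 2. A second, dimmer CEBPD probe set gave a control response of -0.13 (adjusted p = 0.32).

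**Figure D2:**
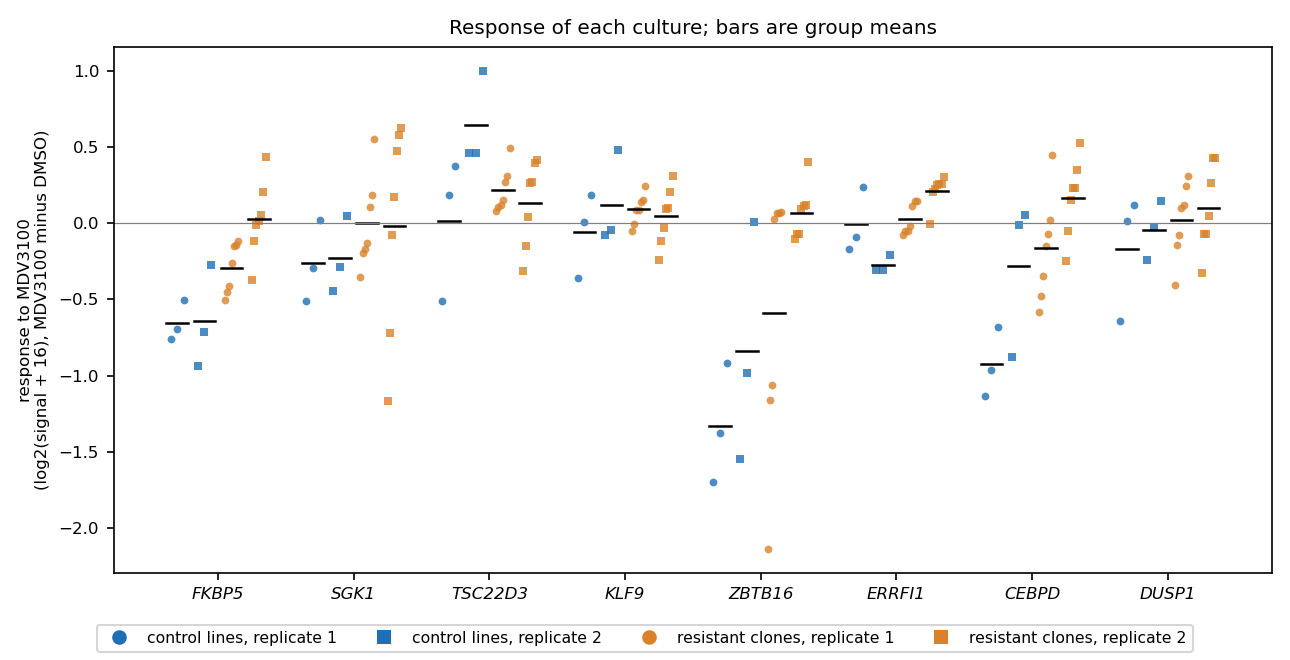
Response to MDV3100 of the 8 tested members, as log2(signal + 16) in MDV3100 minus DMSO, with 1 point per culture and a bar at each group mean; blue marks control lines, orange clones, circles replicate 1 and squares replicate 2. Clones 9, 10 and 14 of replicate 1 lie between -2.14 and -1.06 for ZBTB16, apart from the other clone cultures.

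KLF9 encodes a Krüppel-like zinc finger factor that is a classical early glucocorticoid target. Control lines 1, 2 and 3 had signals of 861, 905 and 909.8 in DMSO and 867, 702 and 1034 in MDV3100 in replicate 1. Replicate 2 gave 618, 855 and 826 in DMSO and 869, 827 and 783 in MDV3100. The changes went both ways, and the control response was 0.03 ± 0.09 (adjusted p = 0.87). The clones of replicate 1 had signals of 621, 793 and 1039 (lowest, median, highest) in DMSO and 644, 879 and 1004 in MDV3100. Those of replicate 2 had 398, 489 and 786 in DMSO and 415, 472 and 724 in MDV3100. The clone response was 0.07 ± 0.06 (adjusted p = 0.61), and it differed from that of the control lines by 0.04 ± 0.11 (adjusted p = 0.90). In MDV3100 all 7 clones of replicate 2 were below all control lines, with overlap in replicate 1. Over both replicates the level differences were -0.40 ± 0.14 in DMSO (adjusted p = 0.12) and -0.37 ± 0.13 in MDV3100 (adjusted p = 0.084). Without clone 1 both were called, at -0.49 (adjusted p = 0.0036) and -0.43 (adjusted p = 0.013). Another KLF9 probe set above the filter did not follow the brightest (r = 0.0036 over 40 arrays) and was higher in MDV3100 in the control lines by 0.29 (adjusted p = 0.022).

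TSC22D3, known as GILZ, encodes a leucine zipper protein that carries part of the anti-inflammatory action of glucocorticoids. In replicate 1 control lines 1, 2 and 3 went from 355, 233 and 318 in DMSO to 405, 159 and 417 in MDV3100. The same lines went in replicate 2 from 453, 532 and 323 to 629.8, 739.5 and 661. Apart from control 2 of replicate 1, every control culture was thus higher in the drug, opposite to FKBP5. The control response was 0.33 ± 0.12 and not called (adjusted p = 0.095), with 0.01 in replicate 1 and 0.64 in replicate 2. Without control 2 it was 0.50 and called (adjusted p = 0.031).

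The clones of replicate 1 had TSC22D3 signals of 469, 569.7 and 737 in DMSO and 557, 677 and 822 in MDV3100, and each of the 7 was higher in the drug. Those of replicate 2 had 265, 362 and 676 in DMSO and 318, 380.4 and 748 in MDV3100, and 5 of 7 were higher. The mean clone response was 0.17 ± 0.08 (adjusted p = 0.30). The difference of responses was -0.15 ± 0.14 (adjusted p = 0.65), at 0.20 in replicate 1 and -0.51 in replicate 2, where every clone response lay below every control response. The level difference between clones and control lines changed sign with the replicate. In replicate 1 all clones were above all control lines in both treatments, by 0.91 in DMSO (adjusted p = 0.016) and 1.12 in MDV3100 (adjusted p = 0.023). In replicate 2 the differences were -0.11 in DMSO and -0.62 in MDV3100, and neither was called. Over both they were 0.40 ± 0.17 in DMSO (adjusted p = 0.18) and 0.25 ± 0.16 in MDV3100 (adjusted p = 0.35).

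SGK1 encodes a serum- and glucocorticoid-regulated kinase related to AKT. In replicate 1 control lines 1, 2 and 3 had signals of 133.5, 93.5 and 134.5 in DMSO and 89.0, 95.2 and 107 in MDV3100. Replicate 2 gave 147, 339.9 and 257 in DMSO and 104, 276 and 267 in MDV3100. Control 2 and control 3 were brighter in replicate 2 than in replicate 1, in both treatments. The control response was -0.24 ± 0.14 (adjusted p = 0.30). Clone signals in replicate 1 were 138, 180.0 and 404 (lowest, median, highest) in DMSO and 135, 207 and 313 in MDV3100, and in each treatment all clones were above all control lines. In replicate 2 they were 196.5, 262 and 430.3 in DMSO and 168, 297 and 358 in MDV3100, and the groups overlapped.

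In MDV3100 the SGK1 level was higher in the clones by 0.66 ± 0.17 (adjusted p = 0.038), the second member called in this comparison. Replicate 1 alone gave 0.92 (adjusted p = 0.022), and replicate 2 alone gave 0.39 (adjusted p = 0.35). The call was lost with the replicate number as a block (adjusted p = 0.063) and on leaving out any of control 1, control 2, control 3 or clones 9, 10, 14, 15 or 19, with differences of 0.42 (without control 1) to 0.79 (without control 3). In DMSO the difference was 0.42 ± 0.18 (adjusted p = 0.18). The clone response averaged -0.0089 ± 0.09, and single cultures of replicate 2 ran from -1.17 in clone 14 to 0.62 in clone 10.

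ERRFI1, also called MIG6, encodes a feedback inhibitor of EGFR and its relatives. Control lines 1, 2 and 3 had replicate 1 signals of 992, 986 and 887 in DMSO and 881, 1166 and 833 in MDV3100. Replicate 2 gave 977, 1020.0 and 904 in DMSO and 788, 823 and 779.9 in MDV3100, each lower in the drug. The control response was -0.14 ± 0.06 (adjusted p = 0.18). Clone signals in replicate 1 were 695, 788 and 1037 in DMSO and 694, 855 and 998 in MDV3100. In replicate 2 they were 992, 1248 and 1393 in DMSO and 990.4, 1441 and 1719.8 in MDV3100. In replicate 2, 6 of the 7 clones had responses between 0.21 and 0.30, and clone 1, which stayed at 992 and 990.4, was the exception. In that replicate all clone responses and all clone MDV3100 levels lay above those of all control lines. The MDV3100 level difference there was 0.83 (adjusted p = 0.016), against -0.16 in replicate 1. Over both replicates the response difference was 0.26 ± 0.08 (adjusted p = 0.13) and the MDV3100 level difference 0.33 ± 0.10 (adjusted p = 0.053). The latter was called without clone 1 (0.36, adjusted p = 0.024).

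DUSP1 encodes a dual-specificity phosphatase that switches off MAP kinases. In replicate 1 control lines 1, 2 and 3 had signals of 168.5, 123 and 144 in DMSO and 102, 124 and 159 in MDV3100. Replicate 2 gave 131, 113 and 127 in DMSO and 108, 126 and 125 in MDV3100. Control 1 was lower in the drug in both replicates, and the other 4 control cultures had responses from -0.02 to 0.14. The control response was -0.11 ± 0.10 (adjusted p = 0.57). Clone signals were 107, 130.1 and 189.6 in DMSO and 79.8, 143 and 170.0 in MDV3100 in replicate 1. In replicate 2 they were 118, 174 and 223 in DMSO and 140.5, 165 and 249 in MDV3100. In MDV3100 all 7 clones of replicate 2 were above all control lines (difference 0.55, adjusted p = 0.049), with overlap in replicate 1 (0.09). The response difference over both was 0.17 ± 0.12 (adjusted p = 0.57). The other 2 DUSP1 probe sets, with mean signals of 12.7 and 14.1, passed the filter but did not follow the brightest in response. Their r to it was -0.0090 and 0.054 over 20 cultures for responses, and -0.13 and 0.51 over 40 arrays for levels.

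**Figure D3:**
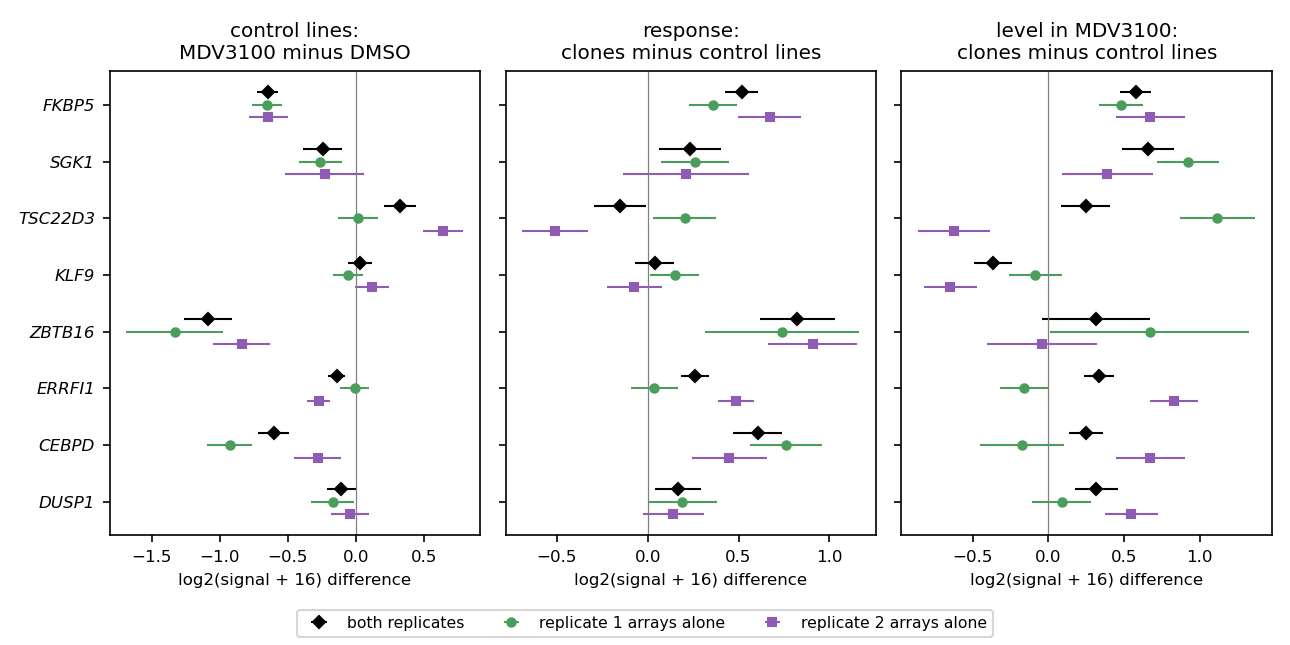
Log2 differences of the 8 tested members with their standard errors: the response of the control lines, the response of clones minus control lines, and the level in MDV3100 of clones minus control lines. Black diamonds use both replicates, green circles replicate 1 and purple squares replicate 2; TSC22D3 is at 1.12 and -0.62 in the 2 replicates in the right panel.

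Each replicate was also tested alone. In replicate 1 the control response was called for the same 3 members, against 7.85% of all genes. In replicate 2 it was called by limma for 0 of 8, against 0.0506%. There 4 of the 8 had an unadjusted p under 0.05, as had 1443 of all 11853 genes. The clone response was called for 0 of 8 by limma in replicate 1 (1.4% of all genes) and in replicate 2 (0.0169%). At an unadjusted p under 0.05 were 3 and 1 of the 8, and 1844 and 1039 of all genes. The response difference was called by limma for 0 of 8 in replicate 1 (0.00844% of all genes) and in replicate 2 (0%). Here 2 and 5 of the 8 had an unadjusted p under 0.05, as had 1868 and 1306 of all genes. The DMSO level difference was called for TSC22D3 in replicate 1, against 6.12% of all genes, and for ZBTB16 in replicate 2 (-0.95, adjusted p = 0.022), against 10.3%. The MDV3100 level difference was called for SGK1 and TSC22D3 in replicate 1, both higher in clones, against 9.01% of all genes. In replicate 2 it was called for ERRFI1 and DUSP1, higher in clones, and for KLF9, lower in clones (-0.65, adjusted p = 0.031), against 19.6%.

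Levels of the members in DMSO differed with the replicate number, as did the actin ratio of the clones given above. In the clones 7 of 8 members differed in DMSO between replicate 2 and replicate 1, against 48.8% of all genes. ERRFI1 (0.56 ± 0.10), FKBP5 (0.49 ± 0.11), CEBPD (0.69 ± 0.20) and DUSP1 (0.31 ± 0.11) were higher in replicate 2, with adjusted p of 0.00083, 0.0050, 0.016 and 0.039. KLF9 (-0.57 ± 0.11), TSC22D3 (-0.53 ± 0.17) and ZBTB16 (-0.48 ± 0.14) were lower, with adjusted p of 0.0019, 0.022 and 0.016. SGK1 was not called (0.41 ± 0.21, adjusted p = 0.13). Leaving out any line but clone 1, 19 or 24 ended the DUSP1 call (0.24 to 0.31), and leaving out clone 14, 15, 19 or 24 that of TSC22D3 (-0.52 to -0.46). Either of the other 2 DUSP1 probe sets also gave no call. Some other probe sets of KLF9, a set above the filter among them, and of TSC22D3 gave the opposite direction, as listed in the closing section. In the control lines 0 of 8 members differed by limma, against 1.21% of all genes. An unadjusted p under 0.05 was found for 2 of 8 members and for 2236 genes in all. There the SGK1 difference was 0.90 ± 0.33 (adjusted p = 0.16) and that of FKBP5 0.60 ± 0.17 (adjusted p = 0.10; 0.042 without clone 1, which enters only the pooled spread). By limma the responses themselves differed between replicates for 0 of 8 members in the clones (0.0844% of all genes) and 0 of 8 in the control lines (0% of all genes). At an unadjusted p under 0.05 each class held 2 of 8, among 1134 genes in the clones and 1314 in the control lines. The largest such differences of the members were 0.66 ± 0.30 for ZBTB16 in the clones and 0.65 ± 0.25 for CEBPD in the control lines.

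Across the 20 cultures the members' responses did not move as 1 block. Of 28 pairs of members the correlation of responses ran from -0.61 to 0.78, with a median of 0.15, and 4 pairs were above 0.5. FKBP5 and ZBTB16 had the highest value (r = 0.78), followed by FKBP5 with CEBPD (0.67), ZBTB16 with CEBPD (0.66) and FKBP5 with ERRFI1 (0.64). TSC22D3 ran opposite to ERRFI1 (r = -0.61) and to FKBP5 (r = -0.44). These are descriptions over cultures that share arrays between genes, hold 2 classes of line and hold each line 2 times.

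**Figure D4:**
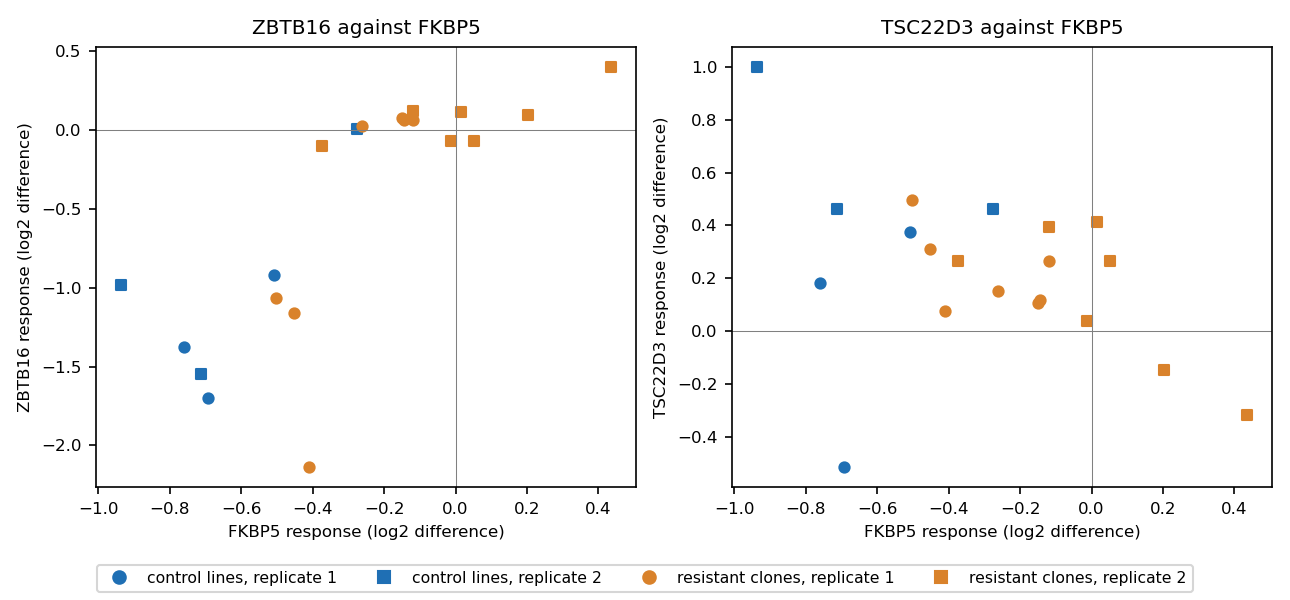
Responses of ZBTB16 (left) and TSC22D3 (right) against the response of FKBP5, as log2(signal + 16) differences, with 1 point per culture; blue marks control lines, orange clones, circles replicate 1 and squares replicate 2. Over the 20 cultures r is 0.78 on the left and -0.44 on the right.

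The genes whose responses were most like each member were named by the same measure. For FKBP5 they were SNAI2 (r = 0.94), PAK1IP1 (0.92) and TBRG1 (0.92), and for CEBPD CENPU (0.90), RRP36 (0.90) and RFC3 (0.87). For ZBTB16 they were KLK2 (0.95), a kallikrein gene under strong androgen control, GPR158 (0.94) and C1orf116 (0.94). For KLF9 they were FOXO3 (0.87), ADGRG1 (0.81) and SLC43A2 (0.81), and for ERRFI1 AFF3 (0.83), BCAP29 (0.82) and HSD17B11 (0.82). For SGK1 they were KIFAP3 (0.80), CGNL1 (0.79) and IMMP2L (0.78), for TSC22D3 ERMAP (0.77), ERBB2 (0.76) and QDPR (0.76), and for DUSP1 RNF139 (0.76), FAIM (0.66) and PUS7L (0.64). These were the highest among all tested genes over the same 20 cultures.

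Other genes of both hormone pathways, in lists chosen with earlier results of these arrays known, were read beside the members. Of 25 tested androgen-induced genes outside the members, 15 fell in the control lines and none rose, with a median response of -0.47 (all genes 0.0082). Of all tested genes 5.06% were called lower there. In the clones 1 of the 25 fell, TRPM8, a cation channel gene (-0.98 ± 0.19, adjusted p = 0.041), and the median was -0.18. The clone response was called for 0.801% of all genes. Examples in the control lines were TRPM8 (-2.27 ± 0.30), KLK2 (-1.50 ± 0.28), SLC45A3, a transporter gene (-1.42 ± 0.21), C1orf116 (-1.23 ± 0.14) and TMPRSS2, a membrane protease gene (-1.05 ± 0.15). The response difference was above 0 for 21 of 25. It was called for 3 of them, all higher in clones, against 0.717% of all genes. These were PMEPA1, an inhibitor of TGF-beta signalling (0.93 ± 0.17, adjusted p = 0.031), C1orf116 (0.82 ± 0.16, adjusted p = 0.038) and TMPRSS2 (0.85 ± 0.17, adjusted p = 0.044). In MDV3100, 6 of the 25 were higher in clones, against 4.7% of all genes. SLC45A3 was among the 6 (1.07 ± 0.25, adjusted p = 0.027). Read apart, 13 of the 25 fell in the control lines of replicate 1, where 7.85% of all genes were called. In those of replicate 2 it was 0 by limma, against 0.0506% of all genes. In replicate 2, 19 had an unadjusted p under 0.05, among 1443 genes in all. The median clone response was -0.34 in replicate 1 and -0.0056 in replicate 2, and TRPM8 was at -1.66 and -0.30. The response difference was called by limma for 0 of the 25 in each replicate alone, against 0.00844% (replicate 1) and 0% (replicate 2) of all genes. At an unadjusted p under 0.05 were 7 and 16 of them, among 1868 and 1306 genes in all.

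Of 23 tested glucocorticoid-induced genes outside the members, 1 fell in the control lines (5.06% of all genes) and none rose, with a median of 0.013. It was NFKBIA, the NF-kappaB inhibitor (-0.45 ± 0.08, adjusted p = 0.0036). By limma 0 of the 23 were called in the clone response (0.801% of all genes) or in the response difference (0.717%), whose median was 0.015. At an unadjusted p under 0.05 were 5 and 2 of the 23. Over all genes 1820 reached that in the clone response, 1747 in the response difference and 3108 in the control response. NFKBIA was higher in clones in MDV3100 by 0.66 ± 0.10 (adjusted p = 0.0079), and 2 of the 23 were, against 4.7% of all genes. Of 14 tested steroid receptor and chaperone genes 0 were called by limma in either response, with 2 (control lines) and 1 (clones) at an unadjusted p under 0.05. In that list the mineralocorticoid receptor gene NR3C2 had a response difference of 0.39 ± 0.15 (adjusted p = 0.24) and the HSP90 co-chaperone gene STIP1 one of 0.24 ± 0.09 (adjusted p = 0.24). In replicates 1 and 2 read apart it was -0.089 and 0.87 for NR3C2, and 0.45 and 0.029 for STIP1. Of 6 glucocorticoid metabolism genes 0 were called by limma in either response, with 3 (control lines) and 1 (clones) at an unadjusted p under 0.05. Of these, H6PD, which supplies NADPH for cortisol activation, was lower in clones in MDV3100 (-0.58 ± 0.10, adjusted p = 0.011). This H6PD difference was -0.18 in replicate 1 and -0.97 in replicate 2.

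Relatives and partners of single members were read against the 10.1% of all genes called in the control response and the 0.801% in the clone response. Among 16 circadian genes, where PER1 would belong, CRY2 (0.30 ± 0.09, adjusted p = 0.047) and TEF (0.31 ± 0.09, adjusted p = 0.045) rose in the control lines and HLF fell (-0.33 ± 0.08, adjusted p = 0.016). Among 16 immediate early genes EGR1 rose in the control lines (0.40 ± 0.10, adjusted p = 0.020) and in the clones (0.32 ± 0.06, adjusted p = 0.039). Of 14 MAP kinase phosphatase and ERBB feedback genes 3 fell in the control lines. EGFR (-0.29 ± 0.07) and SPRY1 (-0.42 ± 0.09) also fell in the clones, by 0.24 and 0.41, while LRIG1 (-0.30 ± 0.07) was at -0.03 there. Of 7 relatives and substrates of SGK1, NEDD4L, a ubiquitin ligase that SGK1 phosphorylates, fell in the control lines (-0.29 ± 0.07, adjusted p = 0.025). Of 12 relatives of KLF9 and ZBTB16, KLF5 fell there (-0.66 ± 0.13, adjusted p = 0.0081). By limma the response difference was called for 0 genes of these 5 groups. At an unadjusted p under 0.05 it held 4 circadian, 3 immediate early and 2 MAP kinase and ERBB genes, among 1747 genes in all. It also held 2 relatives and substrates of SGK1 and 3 relatives of KLF9 and ZBTB16.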

How the data were processed

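The authors deposited 1 linear signal intensity for each probe set and array, computed with MAS5 per the submitters' processing notes, which name no version. They are scaled to a trimmed mean of 150 (2% off each end), and array medians ran from 10.7 to 18.4; 40 arrays were mapped to lines and treatments by their titles. Probe sets with 1 annotated gene (41097 of 54675; 1801 have several) were kept where the mean log2(signal + 16) was at least 4.815, the median over probe sets, and the brightest stood for the gene. The 5 comparisons and 4 replicate contrasts were fitted in limma 3.58.1 (R 4.3.3) on line means with 1 pooled spread for both classes, after a test on simulated data. An alternative fit on arrays with line as a fixed block is in the closing section. The members and lists were chosen with earlier results of these data known. Named genes are the 10 members, the called genes of each list in the control response or response difference, or otherwise the 2 with the largest absolute response difference, and the 3 genes most like each member. DMSO and MDV3100 arrays with the same line and replicate number deviated together (r 0.48 to 0.87), so the numbers pair the treatments. The alternatives are pseudocount, filter, quantile normalization, probe set choice, replicates apart, the replicate block and each line left out. The replicate block was a block for each line and replicate in the response fits, and the replicate number in the level fits. Both took each culture, not each line, as the unit. Leaving out 3 cultures was added after seeing the data. The number of arrays limits the precision.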

Additional observations from a re-analysis of the deposited data

Results flagged for a closer look

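Of 81 groups of values looked at, 7 held a sample far from the others of its group, where chance gives about 1 in 20. Clone 1 of replicate 2 stood apart 3 times. Its FKBP5 signal in MDV3100 was 1536.6, where the other clones had 2732.2 to 3452; its CEBPD signal in MDV3100 was 59.2, where they had 115.3 to 156.9; and its ERRFI1 response was -0.0026, where they had 0.21 to 0.30. The replicate 2 profile of clone 1 was more like clone 19 of replicate 1 than its own label. Clone 1 of replicate 1 had the highest NR3C1 response among the clones of that replicate, 0.42, where the others had 0 to 0.14, at signals below the filter.

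Control 1 of replicate 2 had the lowest KLF9 signal in DMSO, 618.2, where the other control cultures had 826.4 to 909.8. Control 2 of replicate 1 had the highest ERRFI1 signal in MDV3100 among the control cultures, 1166, where the others had 779.9 to 880.6. Clone 24 of replicate 1 had the lowest DUSP1 signal in MDV3100, 79.8, where the other clones had 134.8 to 170. The FKBP5 response differed between clones and control lines by 0.52 (limma adjusted p = 0.031).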

How the results depend on the processing

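The main counts of called members were 3 of 8 for the control response, 0 for the clone response, 1 for the response difference, 0 for the DMSO level difference and 2 for the MDV3100 level difference. Over all tested genes the shares called were 10.1%, 0.801%, 0.717%, 0.118% and 8.96%, in the same order. In replicates 1 and 2 alone the response difference was called for 0.00844% and 0% of all genes, and the DMSO level difference for 6.12% and 10.3%. The control response was called for 0.0506% in replicate 2 alone. With line as a block 0% of all genes were called in the responses and their difference. The response difference count was 0 with a pseudocount of 1, without the filter, with the mean of probe sets, in replicate 1 alone, in replicate 2 alone, with the replicate block, and with arrays fitted with line as a block. It was 3 with a pseudocount of 64 and 3 without the replicate 2 arrays of control 2, control 3 and clone 1, a setting chosen after seeing the data. It removes the 2 control cultures with CEBPD responses of -0.012 and 0.054 and keeps the 4 clones of replicate 2 that were most like control 1, so no result rests on it. The MDV3100 level count was 1 without the filter and 1 with the replicate block. The DMSO level count was 1 in replicate 1 alone, 1 in replicate 2 alone and 3 without those 3 cultures. That setting also took the response difference of TSC22D3 from -0.15 to 0.10, its control response from 0.33 to 0.061 and the MDV3100 level difference of ZBTB16 from 0.31 to 0.87, none of them called. The control response count was 0 in replicate 2 alone and 0 with arrays fitted with line as a block, where FKBP5 had an adjusted p of 0.65, ZBTB16 of 0.49 and CEBPD of 0.90. The fit with line as a block holds no term for the replicate. Between replicates the clone DMSO level was called for 48.8% of all genes. A single replicate holds fewer arrays. The cause of these changes in the counts was not tested. Leaving out 1 line at a time gave 0 to 2 for the response difference, 0 to 4 for the MDV3100 level, 0 to 2 for the DMSO level and 0 to 1 for the control DMSO level of replicate 2 minus 1. Where no share of all genes is given for a setting, a changed count is not read as a result about the members. The control response calls of FKBP5, ZBTB16 and CEBPD held with the replicate block (adjusted p = 0.00079, 0.0079 and 0.013). The replicate block counts the 2 cultures of a line as independent, so these p-values do not take the line as the unit. 4 called values turned direction, all in the clone DMSO level of replicate 2 minus 1 read from other probe sets: TSC22D3 at 0.16 and 0.062, KLF9 at 0.027 and 0.072. Of 1451 member values under an alternative, 1299 kept direction and side of the threshold, 50 lost a call and 25 gained one. Another 73 values crossed 0 and were called neither in the main fit nor under the alternative. Among them, the TSC22D3 MDV3100 level difference was 0.25 over both replicates and -0.62 in replicate 2 alone. In replicate 1 alone those of CEBPD (0.25) and ERRFI1 (0.33) were -0.18 and -0.16. That array-level fit was made for the 2 responses and their difference only.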
